A study of Sus scrofa with 20 samples.

Results

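Interferon-stimulated genes are the genes that cells switch on when an interferon reaches its receptor, and 39 of them, chosen by name, were followed in the blood cells of piglets. A gene entered by the symbol that the array's annotation gives its probe sets, and where a gene had several, the probe set with the highest mean over all animals stood for it. Of the 39 genes 34 had a probe set, among 13664 annotated genes of the array, and 33 of these passed the filter on low values, among 9346 genes. No probe set carried the symbol of HERC5, IRF7, SAMD9, IFI16 or IFI44L. PARP9 had one that did not pass, with a mean of 3.27 on the log2 scale, and is given by its values alone. The filter asked for a value above the array's median on 16 of 20 arrays. As no diet had more than 7 animals, no gene could pass through one diet alone.

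The animals were weaned German Landrace piglets that received a diet low (L), medium (M) or high (H) in phosphorus and calcium, the M diet being the control diet with recommended mineral levels. There were 6 L animals (3 females, 3 males), 7 M animals (4 females, 3 males) and 7 H animals (3 females, 4 males), all sampled on day 63, and the males were castrated. The piglets came from several litters, and the litter of an animal is not in the labels used here. Peripheral blood mononuclear cells (PBMC), the lymphocytes and monocytes of blood, were taken on a density gradient, and RNA of each animal was hybridized to 1 snowball array, a pig expression array. All levels are RMA values, on a log2 scale that is read within a probe set and not between genes, and a difference between diets is a log2 difference, where 1 stands for a doubling. Animals are named by diet and replicate number, as in L 10.

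Interferons are secreted proteins of antiviral defence. Type I interferons bind the receptor of IFNAR1 and IFNAR2 and act through the kinases JAK1 and TYK2 on a complex that holds STAT2 and IRF9 and turns on genes with an interferon-stimulated response element. Interferon gamma, a product of T cells and NK cells, has a receptor of its own and acts in part through IRF1, and the gene sets of both kinds of interferon overlap. The products of these genes block viral translation and budding, degrade or sense foreign RNA, or tune the response itself, and in human PBMC they are among the transcripts that vary most between healthy individuals.

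Between H and L animals the interferon-stimulated genes lay higher in H as a group, without any of them being called. A gene was called at an unadjusted p under 0.01 together with a q under 0.21 in limma with sex as a covariate. The q is an estimate of the false discovery rate. Of 33 members 0 reached this call, against 0.0214% of all genes. The study set the same thresholds in a variance analysis that also held litter, and filtered by presence calls. Its tables list IFIT3 among the genes that differed between L and H. The reason for the different outcome here was not tested. With the p alone, 10 members were under 0.01 unadjusted, all with the higher level in H, or 30.3% of the members, against 2.18% of all genes in either direction and 1.40% with the higher level in H. They were IFIT2, IFIT3, IFIT5, ISG15, HERC6, ZBP1, PARP12, PARP14, DTX3L and EPSTI1, with q from 0.426 to 0.434 in limma. Another 8 were under 0.05, which made 18, again all higher in H (54.5% of the members, against 9.17% of all genes in either direction and 4.96% higher). The difference H minus L was above 0 in 30 of 33 members, with a median of 0.65, while 45.1% of all genes lay above 0 and their median was -0.02. In PARP9, which did not pass the filter, the difference was 0.46. The members share regulators and vary together between animals, so these counts do not stand for independent genes. The counts also turned on single animals. Under 0.01 there were 18 members without L 10, 6 without L 5, 6 without L 6 and 5 without L 9, and 10 were called without L 13 (1.48% of all genes), 9 without L 10 (0.310%) and 7 without H 18 (0.653%). With each array weighted by its quality 14 were called, against 4.68% of all genes. Markers of monocytes and neutrophils also lay higher in H, and with their scores as covariates 0 members were at an unadjusted p under 0.01 (0.706% of all genes) and 3 under 0.05 (3.79%). The neutrophil score holds TGM3 (H minus L 2.35) and IL1R2 (1.52), so it carries part of the diet difference itself.

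The diets overlapped in every member. No member had all 7 H animals above all 6 L animals, a pattern found in 0.128% of all genes. The same few animals stood at the edges of the groups. The highest L animal was L 10 or L 13, both females, in all 33 members, and the lowest H animal was H 17 or H 18, also females, in 32. In 13 members, 9 of them among the 10 at an unadjusted p under 0.01, L 10 and L 13 were the only L animals above the lowest H animal. In 18 members 3 or more L animals lay above it, and in 6 of them, GBP1, GBP2, IFI35, IFI6, XAF1 and LAP3, all 6 did.

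**Figure D1:**
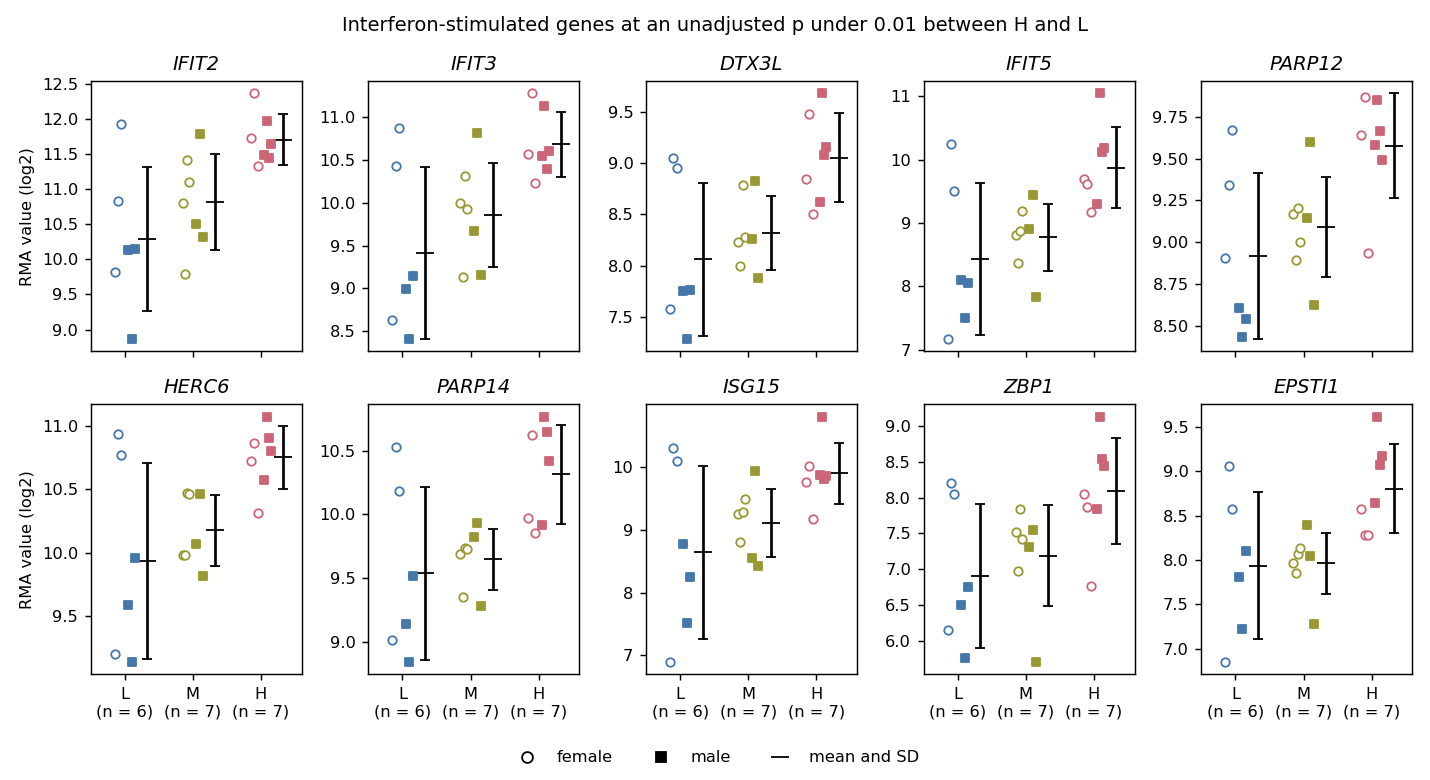
RMA values on a log2 scale (vertical axes) of the 10 interferon-stimulated genes at an unadjusted p under 0.01 between H and L, for the L (n = 6), M (n = 7) and H (n = 7) groups, with open circles for females, filled squares for males, and a bar for the mean and SD. In most of these genes the H animals sit close together near the top, while the L group is split, with L 10 and L 13 as the pair of open circles near the H level in all but IFIT2, where L 10 lay lower at 10.84.

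The IFIT proteins bind the ends of foreign RNA and block its translation. The genes of this family lie side by side in the genome, and those for IFIT2, IFIT3 and IFIT5 had the largest H minus L differences of the 33 tested members. IFIT5 has its name from the array's annotation, and RefSeq gives this symbol only as a synonym of a locus without a gene name. IFIT2 lay between 8.87 and 11.93 in L (median 10.14), between 9.80 and 11.79 in M (median 10.81) and between 11.33 and 12.37 in H animals (median 11.64). Its H minus L difference was 1.44 (SE 0.35), a fold of 2.72, with a two-sided exact permutation p = 0.00641 over the H and L animals, a test that takes no covariate. Only L 13 reached into the range of the H group. IFIT3 lay between 8.41 and 10.88 in L (median 9.07), between 9.14 and 10.81 in M (median 9.93) and between 10.23 and 11.28 in H animals (median 10.57), with an H minus L difference of 1.29 (SE 0.34, exact permutation p = 0.0169). IFIT5 lay between 7.17 and 10.25 in L (median 8.07), between 7.84 and 9.44 in M (median 8.88) and between 9.17 and 11.05 in H animals (median 9.69), with 1.45 (SE 0.41, exact permutation p = 0.0221). IFIT1 did not share this pattern. It lay between 10.78 and 13.01 in L (median 12.52), between 11.76 and 12.95 in M (median 12.65) and between 12.09 and 12.88 in H animals (median 12.51), with a difference of 0.28 (SE 0.27, exact permutation p = 0.436), and 4 L animals lay above the lowest H animal.

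ISG15 is a ubiquitin-like protein that is attached to other proteins during infection. UBE2L6 is its conjugating enzyme, HERC5 in humans and HERC6 in mice are its ligases, and USP18 removes it and also dampens the type I receptor. ISG15 lay between 6.89 and 10.30 in L (median 8.51), between 8.42 and 9.93 in M (median 9.24) and between 9.17 and 10.80 in H animals (median 9.86). The difference H minus L was 1.27 (SE 0.43, exact permutation p = 0.0437). The lowest value of all 20 animals, 6.89, was that of L 5, a female, so the sexes were mixed at the low end of L. HERC6 lay between 9.14 and 10.94 in L (median 9.77), between 9.82 and 10.47 in M (median 10.06) and between 10.31 and 11.07 in H animals (median 10.80), with 0.83 (SE 0.24, exact permutation p = 0.0286). USP18 and UBE2L6 had differences of 0.77 (SE 0.36, exact permutation p = 0.119) and 0.49 (SE 0.23, exact permutation p = 0.124). All 4 tested genes of this group thus had a difference above 0, the enzyme that removes ISG15 among them.

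PARP9, PARP12 and PARP14 belong to the family of ADP-ribosyltransferases, and DTX3L is an E3 ubiquitin ligase that works as a partner of PARP9. PARP12 lay between 8.43 and 9.67 in L (median 8.76), between 8.63 and 9.60 in M (median 9.14) and between 8.94 and 9.87 in H animals (median 9.64), with an H minus L difference of 0.67 (SE 0.19, exact permutation p = 0.0192). PARP14 lay between 8.84 and 10.53 in L (median 9.33), between 9.28 and 9.93 in M (median 9.73) and between 9.86 and 10.77 in H animals (median 10.42), with 0.78 (SE 0.24, exact permutation p = 0.0321). DTX3L lay between 7.29 and 9.05 in L (median 7.76), between 7.88 and 8.83 in M (median 8.26) and between 8.500 and 9.68 in H animals (median 9.08), with 1.001 (SE 0.27, exact permutation p = 0.0175). In DTX3L 4 of 7 H animals lay above every L animal, the most of any tested member, and 4 did so in PARP9, which did not pass the filter. This was also the one role group whose tested genes were all at an unadjusted p under 0.01. PARP9, the partner of DTX3L and its neighbour in the genome, lay between 2.65 and 3.65 in L (median 2.99), between 2.95 and 3.35 in M (median 3.12) and between 2.89 and 3.96 in H animals (median 3.66). These values are near the 3.57 to 4.17 of the background control probe sets on the 20 arrays, and PARP9 was not tested.

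MX1, MX2, GBP1 and GBP2 are GTPases of the dynamin superfamily. The MX proteins trap viral nucleoproteins, and the guanylate-binding proteins, which are induced most by interferon gamma, attack the vacuoles and membranes of pathogens in the cell. MX1 lay between 8.62 and 11.39 in L (median 9.47), between 9.22 and 10.29 in M (median 10.08) and between 9.47 and 11.78 in H animals (median 10.87), with an H minus L difference of 1.08 (SE 0.39, exact permutation p = 0.0600). MX2 lay between 8.37 and 11.28 in L (median 9.25), between 8.91 and 10.44 in M (median 9.60) and between 9.36 and 11.70 in H animals (median 10.55), with 1.03 (SE 0.42, exact permutation p = 0.0833). The MX genes thus had differences as large as DTX3L but a wider spread, and 3 L animals reached into the H range in each. GBP1 lay between 10.06 and 11.60 in L (median 10.30), between 9.81 and 11.87 in M (median 10.75) and between 9.47 and 11.74 in H animals (median 10.44). Its difference was 0.01 (SE 0.35, exact permutation p = 0.932), and that of GBP2 was -0.12 (SE 0.37, exact permutation p = 0.804). In both GBP genes all 6 L animals lay above the lowest H animal, which was H 17.

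Among the sensors and nuclear body proteins, ZBP1 detects nucleic acids in the Z form and starts cell death, and PML builds the nuclear bodies that silence viral genomes. ZBP1 lay between 5.76 and 8.21 in L (median 6.62), between 5.70 and 7.84 in M (median 7.43) and between 6.76 and 9.14 in H animals (median 8.05), with an H minus L difference of 1.20 (SE 0.41, exact permutation p = 0.0344). PML lay between 7.86 and 9.22 in L (median 8.10), between 7.92 and 8.62 in M (median 8.16) and between 8.24 and 9.49 in H animals (median 8.60), with 0.48 (SE 0.23, exact permutation p = 0.120). In both genes L 10 and L 13 alone reached the H range. SP110, a further nuclear body protein, had a difference of 0.24 (SE 0.15, exact permutation p = 0.179).

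The effectors on nucleotides, RNA and membranes include RSAD2 (viperin), which makes a chain-terminating nucleotide, and CMPK2, a nucleotide kinase that feeds it and is encoded next to it. RSAD2 lay between 6.92 and 10.81 in L (median 8.44), between 7.78 and 9.30 in M (median 9.02) and between 8.90 and 11.17 in H animals (median 9.66), with an H minus L difference of 1.29 (SE 0.48, exact permutation p = 0.0676). CMPK2 lay between 6.65 and 8.97 in L (median 7.26), between 7.04 and 8.19 in M (median 7.76) and between 7.37 and 9.34 in H animals (median 8.38), with 0.92 (SE 0.34, exact permutation p = 0.0641). The difference of RSAD2 equalled that of IFIT3 to 2 decimals, with a larger error. LGALS3BP, a secreted glycoprotein, had 0.49 (SE 0.20, exact permutation p = 0.0763), and BST2 (tetherin), which holds budding virions at the cell surface, had 0.64 (SE 0.46, exact permutation p = 0.256). ISG20, an exonuclease of single-stranded RNA, had 0.14 (SE 0.14, exact permutation p = 0.372).

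The transcription factors of the pathway had H minus L differences from 0.18 to 0.27. STAT2 lay between 8.86 and 9.97 in L (median 9.34), between 8.75 and 9.57 in M (median 9.30) and between 9.11 and 10.12 in H animals (median 9.59), with an H minus L difference of 0.27 (SE 0.18, exact permutation p = 0.212). IRF9 lay between 7.76 and 8.81 in L (median 8.17), between 7.73 and 8.46 in M (median 8.26) and between 7.76 and 8.69 in H animals (median 8.61), with 0.27 (SE 0.17, exact permutation p = 0.198). IRF1 had 0.18 (SE 0.17, exact permutation p = 0.319). None of these 3 was at an unadjusted p under 0.05.

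Of the other interferon-induced proteins, EPSTI1, a regulator of macrophage activation, lay between 6.85 and 9.07 in L (median 7.96), between 7.28 and 8.39 in M (median 8.05) and between 8.28 and 9.62 in H animals (median 8.64), with an H minus L difference of 0.86 (SE 0.30, exact permutation p = 0.0420). IFI44 lay between 7.96 and 10.38 in L (median 8.80), between 8.14 and 9.73 in M (median 9.48) and between 8.37 and 10.48 in H animals (median 9.73), with 0.71 (SE 0.39, exact permutation p = 0.162). IFI6, an inhibitor of apoptosis and of the replication of flaviviruses, lay between 8.26 and 11.15 in L (median 9.20), between 8.04 and 10.14 in M (median 9.63) and between 8.26 and 11.38 in H animals (median 10.39), with 0.65 (SE 0.51, exact permutation p = 0.297). EPSTI1 was the one gene of these with an unadjusted p under 0.01, and the lowest values of IFI6 in H and in L were the same to 2 decimals. RTP4 and XAF1 had differences of 0.65 (SE 0.48) and 0.49 (SE 0.45). IFI35 and the aminopeptidase LAP3 had -0.01 (SE 0.18) and -0.17 (SE 0.34), and with GBP2 these were the 3 members below 0. The further probe sets of IFI35 and LAP3 lay above 0, so the sign of both turned on the probe set.

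In the exact permutation test, which used each of the 1716 ways to split the 13 H and L animals, 10 of 33 members (30.3%) had an unadjusted two-sided p under 0.05, all higher in H, against 8.36% of all genes in either direction and 4.08% higher in H. They were the same 10 genes as those under 0.01 in limma, from IFIT2 with the smallest exact permutation p to ISG15 with the largest, 0.0437. The smallest p that this test can give is 0.000583, and with 33 such tests the values are shown unadjusted. The count was 19 without L 10, 6 without L 6 or H 11 and 5 without L 5, L 9 or H 7.

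Most of the 16 members with several probe sets gave the same direction with each. Of their 25 further probe sets 21 passed the filter, 19 of these lay above 0 between H and L, and 7 were at an unadjusted p under 0.01. The further probe sets of IFIT2 and IFIT3 had differences of 1.38 and 1.44, and correlated with the main ones at 0.995 and 0.992 over the 20 animals. In 4 members a further probe set past the filter had the opposite sign to the main one. These were PARP14 with -0.21, where the further probe set correlated with the main one at -0.156, GBP1 with -0.01, LAP3 with 0.255 and IFI35 with 0.11. One of the further probe sets of ZBP1 had 0.97 with a limma p of 0.000411. Probe sets of the IFIT family, GBP1, ISG15, ISG20, ZBP1, BST2, STAT2, IFI35, RTP4 and LAP3 are marked by the array as able to match more than one transcript. These could be transcripts of the same gene or of close relatives within a family, and which of these applies was not tested.

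Between M and L no member passed the test. Of 33 members 0 were called, as were 0% of all genes, and 0 were at an unadjusted p under 0.01, against 0.246% of all genes, or under 0.05, against 1.67%. The difference M minus L was above 0 in 22 of 33 members with a median of 0.13, and -0.01 over all genes. The members furthest above 0 were IFIT2 with 0.50 (SE 0.35) and ISG15 with 0.45 (SE 0.43), and LAP3 was furthest below with -0.38 (SE 0.34).

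Between H and M 0 members were called, against 0.0428% of all genes, and 3 were at an unadjusted p under 0.01, all higher in H, or 9.09% against 1.68% of all genes (0.610% higher in H). They were EPSTI1 with an H minus M difference of 0.83 (SE 0.29), DTX3L with 0.76 (SE 0.26) and PARP14 with 0.68 (SE 0.23, with q from 0.590 to 0.593 in limma). Under 0.05 the count was 17, again all higher in H (51.5%, against 7.18% of all genes and 3.98% higher in H). The median over the members was 0.55, against -0.01 over all genes. This comparison shares its H animals with H against L, so the likeness of the lists is not independent. Without H 18 the count under 0.01 was 15, without L 10 or L 13 it was 7 and without L 5 or M 16 it was 6, while it was 1 without M 1, M 14 or M 20 and 0 without M 8, M 19, H 7, H 11 or H 12. Under 0.05 it was 10 without M 19 and 11 without H 7 or H 11. In the test of all 3 diets together 0 members were called (0.0214% of all genes), 7 were at an unadjusted p under 0.01 (21.2%, against 1.40%) and 17 under 0.05 (51.5%, against 6.22%). Under 0.01 there were then 17 without L 10, 11 without H 18, 4 without L 6 and 3 without L 9, H 7, H 11 or H 12, and under 0.05 there were 11 without L 6 or L 9, 10 without H 11 and 8 without H 7.

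**Figure D2:**
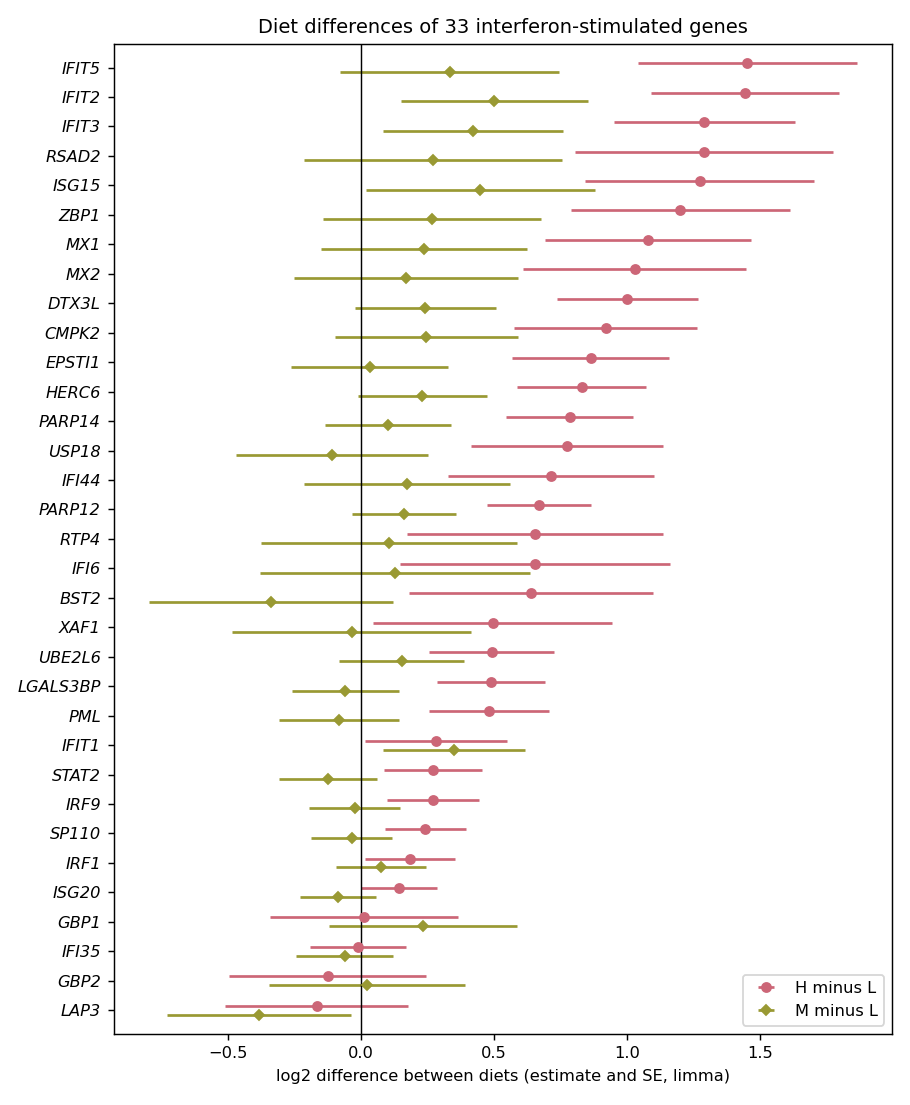
Log2 differences between diets (horizontal axis) for the 33 interferon-stimulated genes past the filter (vertical axis), with circles for H minus L, diamonds for M minus L and bars for the limma SE. H minus L lies above 0 in 30 genes and reaches 1.45 in IFIT5, while M minus L stays between -0.38 and 0.50.

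Each sex was also described on its own. The split followed the sight of females at the edges of both groups, in the same animals and genes, so the counts by sex describe that pattern and do not support it. In the 4 H males and 3 L males the difference H minus L was above 0 in 33 of 33 members, with a median of 1.42, against 0.01 over all genes. In 27 members all 4 H males lay above all 3 L males, a pattern shown by 5.52% of all genes, and in none did they lie below, as 2.17% of all genes did. In the 3 H females and 3 L females the difference was above 0 in 12 members and below 0 in 21, with a median of -0.13, against -0.05 over all genes. No member had all H females above all L females (4.41% of all genes), which was fixed beforehand in at least 32 members, as the diets overlapped in each and the animals at both edges were females. None had all H females below all L females (11.3%). With groups of this size the smallest two-sided exact permutation p is 0.0571 in males and 0.1 in females, so neither sex alone can pass 0.05.

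The difference between the sexes was put as an interaction of diet and sex over all arrays. As the pattern had been seen in these animals, the counts are a description and not independent evidence of it. The interaction had an unadjusted p under 0.01 in 10 of 33 members, against 0.867% of all genes, and under 0.05 in 25, or 75.8% against 5.25% of all genes. None was called, as the lowest q of the members was 0.804 in limma. In all 25 the difference H minus L was larger in males, a direction that 4.26% of all genes had under 0.05 and 0.717% under 0.01. The 10 were LGALS3BP, IFI6, PML, XAF1, USP18, CMPK2, MX1, MX2, IRF1 and ZBP1. LGALS3BP, XAF1, USP18 and IRF1 are named here after their values were seen.

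In IFI6 the 4 H males had 10.39, 10.76, 10.84 and 11.38, against 8.26, 8.83 and 9.57 in the 3 L males. The 3 H females had 8.26, 8.72 and 9.92, against 8.45, 9.96 and 11.15 in the 3 L females. The order of the diets was thus opposite in the sexes, with H minus L at 1.96 in males and -0.89 in females, a difference of 2.85 (SE 0.81). MX1 had 10.78, 11.10, 11.18 and 11.78 in H males, against 8.62, 9.15 and 9.78 in L males. It had 9.47, 10.47 and 10.87 in H females, against 8.83, 10.64 and 11.39 in L females. H minus L of MX1 was 2.02 in males, a fold of 4.07, and -0.02 in females, a difference of 2.04 (SE 0.67). IFIT2 stood apart from these. It had 11.44, 11.48, 11.64 and 11.96 in H males, against 8.87, 10.13 and 10.15 in L males, and 11.33, 11.73 and 12.37 in H females, against 9.81, 10.84 and 11.93 in L females. Its H minus L was above 0 in both sexes, 1.91 in males and 0.95 in females, and the difference between them was 0.97 (SE 0.68). IFIT3, ISG15 and IFIT5 likewise lay above 0 in both sexes, with 1.82, 1.91 and 2.28 in males and 0.72, 0.55 and 0.52 in females. So did DTX3L, HERC6, PARP14, EPSTI1, PARP12 and ZBP1, from 0.42 in DTX3L down to 0.08 in ZBP1 in females. All genes at an unadjusted p under 0.01 between H and L were thus above 0 in both sexes. They were picked by the difference over both sexes, so this is a description. The interaction rested on single animals. Under 0.01 it left 2 members without L 10, 3 without L 9, 5 without H 7 or H 18 and 6 without H 11. Without L 5 it had 27, of which 10 were then called. The share of all genes was not taken for the interaction with an animal left out. These counts are therefore not read as a trait of the members. In L the males were uniformly low, while the females were split, and litter, which could differ between these animals, was not tested.

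**Figure D3:**
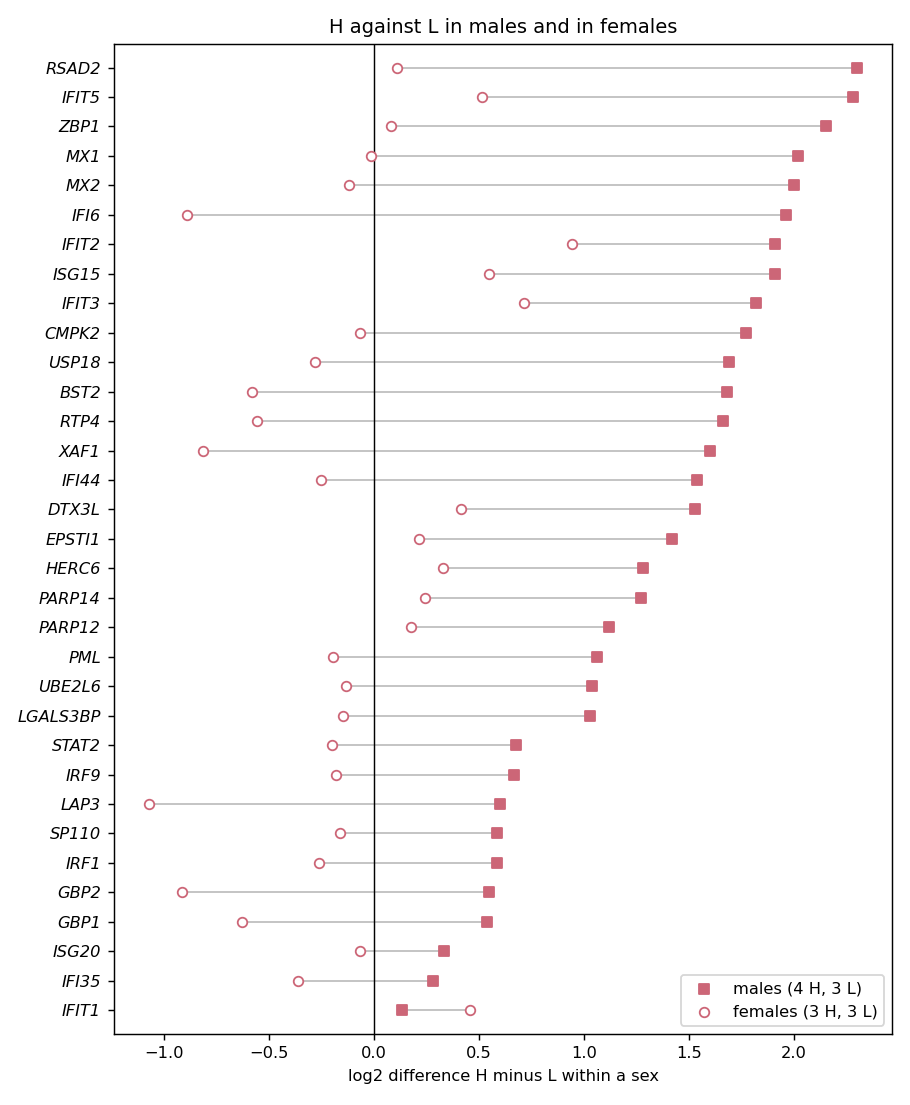
Log2 difference H minus L (horizontal axis) of each interferon-stimulated gene (vertical axis) within the 7 males (filled squares) and within the 6 females (open circles), with a line joining both. All squares lie above 0, and 21 of 33 circles lie below it, the lowest in LAP3 at -1.07.

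The members moved together from animal to animal within a diet. For each animal the deviation from the mean of the 20 animals was taken in each member, and its median over the members was used as the animal's position. In L it was -0.90 in L 9, -0.83 in L 5, -0.47 in L 6, -0.41 in L 15, 0.32 in L 13 and 0.82 in L 10. In M it ran from -0.66 in M 19 to 0.07 in M 1 with a median of -0.02, and in H from -0.27 in H 18 to 1.18 in H 7 with a median of 0.24. The animals spanned 1.72 in L, 0.73 in M and 1.45 in H, so the spread within a diet exceeded the distance between the medians of the diets. H 7, a male, was the highest of all 20 animals in 23 members and above the mean in all 33. L 10 was the highest L animal in 27 members, and L 5 lay below the mean in all 33. H 18 was the lowest H animal in 26 members and M 19 the lowest M animal in 24.

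**Figure D4:**
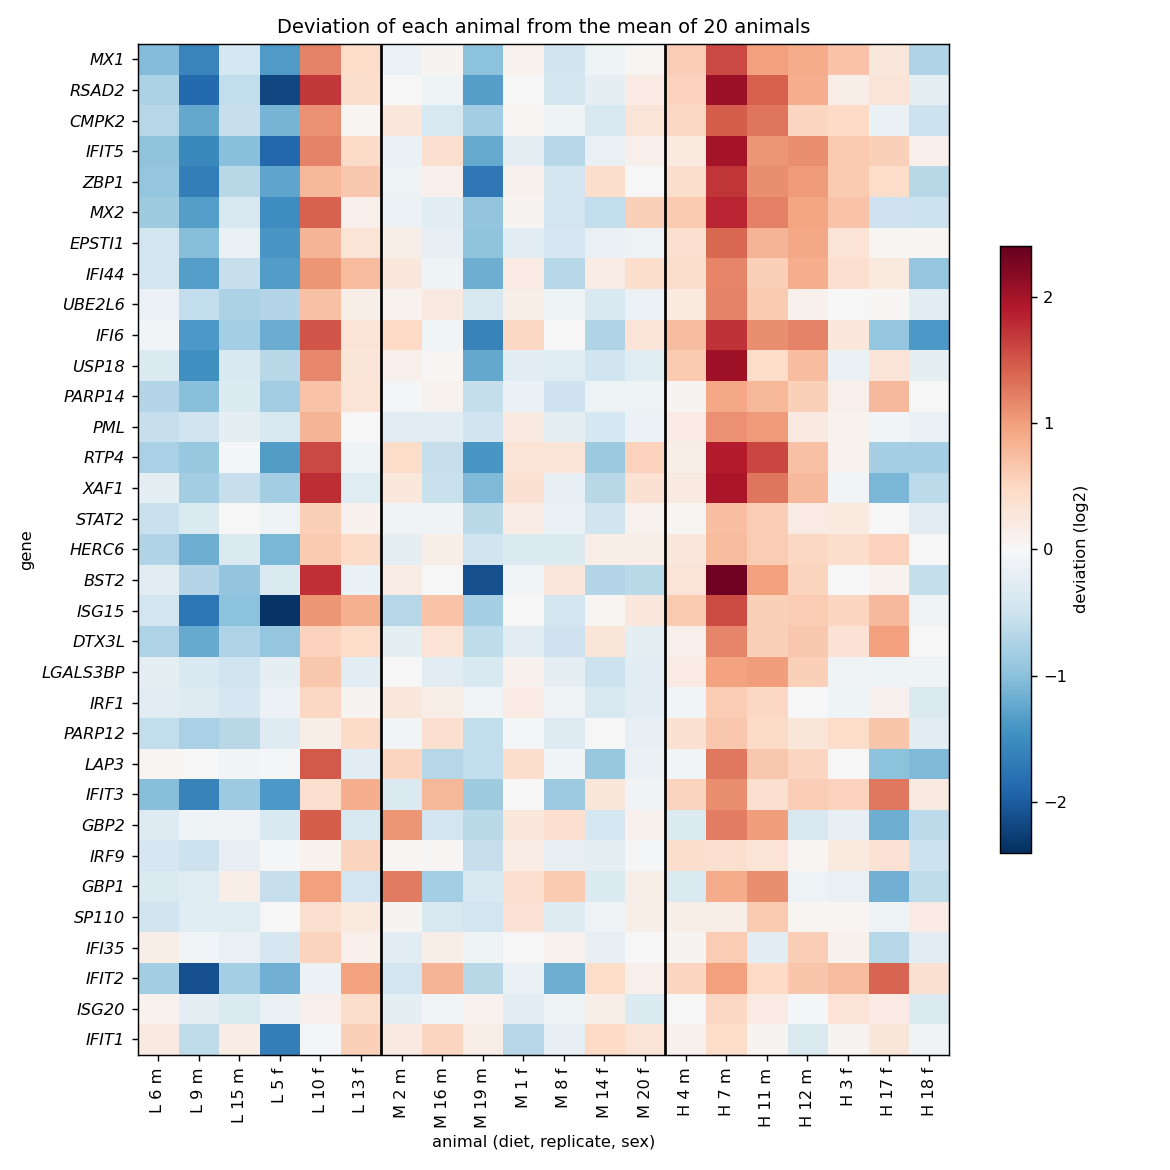
Deviation of each animal from the mean of all 20 animals on the log2 scale (colour, red above and blue below) for the 33 interferon-stimulated genes (rows, ordered by their correlation with the other members) and the animals of the L, M and H groups (columns, m for males and f for females). Columns are mostly of one colour from top to bottom, blue in the 3 L males and in L 5, red in L 10, H 7, H 11 and H 12; the lowest rows, among them IFIT2 and IFIT1, depart from this.

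This variation was large for genes of their level. After the diet and sex means were removed, the median SD of the members was 0.69, against 0.27 over all genes, and 21 of 33 members lay above the 90th percentile of the genes of similar mean level. The SD ran from 0.25 in ISG20 to 1.04 in IFI6. By diet, the median SD of the members was 0.80 in L, 0.42 in M and 0.50 in H.

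Over the 20 animals, with the diet and sex means removed, the median Pearson correlation between 2 members was 0.695 over 528 pairs, from -0.167 to 0.969, and 31.2% of the pairs lay above 0.8. Between pairs of all genes the median was 0.0345 and 0.703% lay above 0.8. The animals share their arrays and their cell composition across genes, and these correlations are a description. MX1 and RSAD2 followed the mean of the other members most closely, with 0.966 and 0.965. CMPK2 and IFIT5 came next with 0.951 and 0.946. IFIT1, ISG20 and IFIT2 followed it least, with 0.386, 0.489 and 0.561.

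The members spread between 2 ends that did not vary together, picked here after the correlations were seen. At one end stood IFIT2, which correlated at 0.943 with IFIT3, 0.844 with DTX3L, 0.802 with HERC6 and 0.801 with PARP12. At the other end stood GBP2, with 0.957 for GBP1, 0.900 for RTP4, 0.898 for LAP3 and 0.893 for XAF1. GBP2 and IFIT2 themselves correlated at -0.06. At the IFIT2 end H minus L was 1.44 in IFIT2, 1.29 in IFIT3, 1.001 in DTX3L, 0.83 in HERC6 and 0.67 in PARP12. IFIT1, which correlated at 0.682 with IFIT2, had 0.28. At the other end GBP2, GBP1 and LAP3 were near or below 0, while RTP4 had 0.65 and XAF1 0.49. The difference thus did not follow the ends in every gene. CXCL10, a chemokine induced mainly by interferon gamma, correlated at 0.945 with GBP2 and at 0.110 with IFIT2. IFNG, the gene of interferon gamma itself, had a probe set that did not pass the filter, and its values correlated at 0.755 with GBP2 and at -0.01 with IFIT2. TDRD7 and the RNA sensor DDX58 (RIG-I) leaned the other way, with 0.340 and 0.453 for GBP2 and 0.823 and 0.808 for IFIT2. IFNGR1, a chain of the interferon gamma receptor, also leaned that way, with -0.581 for GBP2 and 0.625 for IFIT2. The kinase JAK2 had -0.074 and 0.818. These genes were picked after their values were seen, and whether the ends follow the kind of interferon was not tested. H 17 and L 10 show this split between animals, since H 17 was the lowest H animal in GBP1 and GBP2 at 9.47 and 6.87 but at 12.37 the highest of all 20 animals in IFIT2, and L 10 was the highest L animal in GBP2 at 9.50 and at 10.84 below every H animal in IFIT2.

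**Figure D5:**
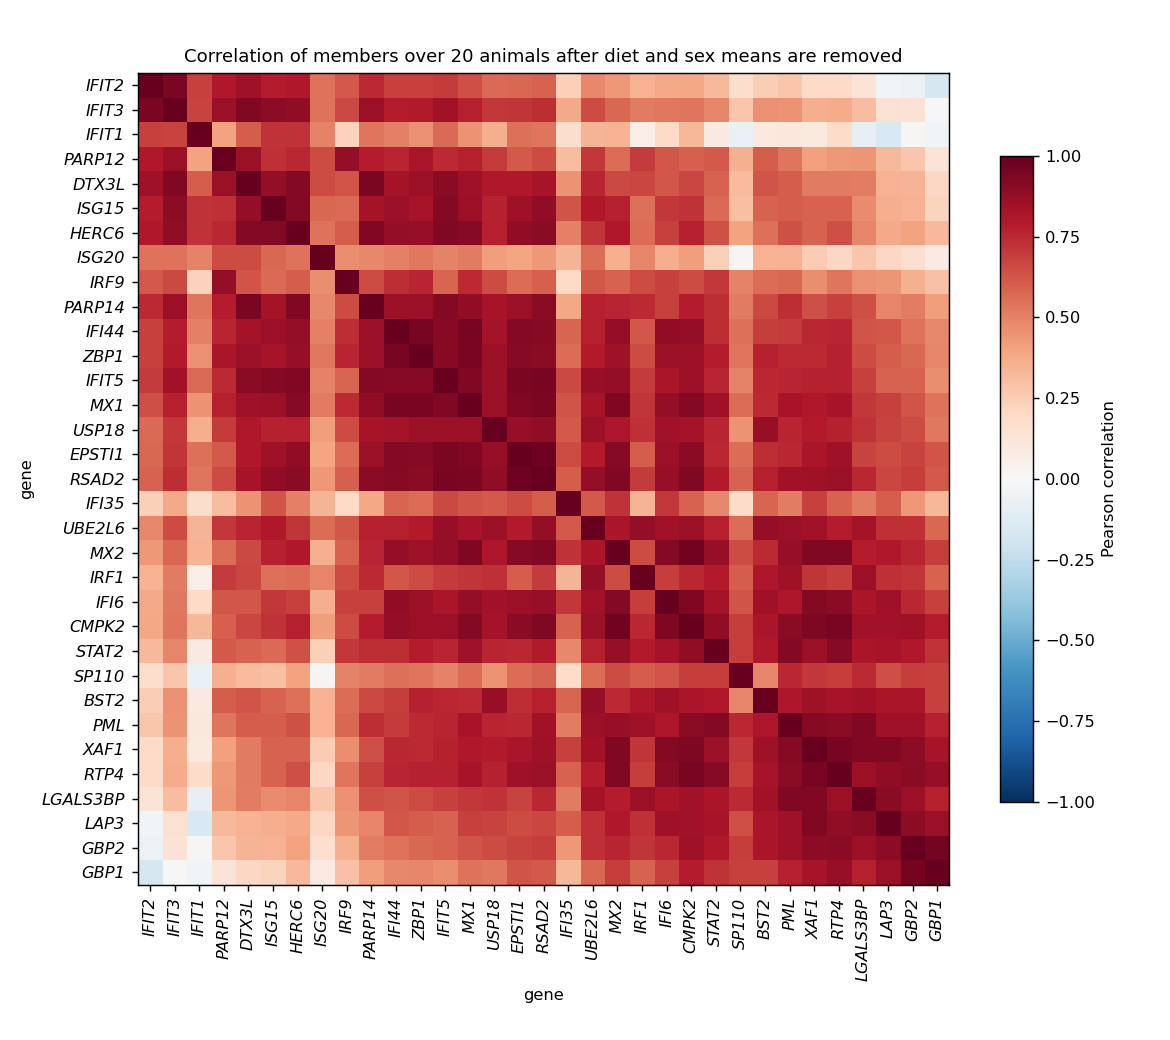
Pearson correlation between members over the 20 animals after diet and sex means were removed (colour, from -1 to 1), with the 33 interferon-stimulated genes on both axes, ordered from the IFIT2 end to the GBP end. Most cells are dark red, with a median of 0.695 over the pairs, and the pale corners are those of IFIT2 and IFIT1 with GBP1, GBP2 and LAP3.

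Genes that lie next to each other in the genome were often close in this sense, but not always. The positions were taken from the RefSeq annotation of Sscrofa11.1, which listed 37 of the 39 genes, IFIT5 only by synonym, and counted over protein-coding genes. The neighbours GBP1 and GBP2 correlated at 0.957, IFIT2 and IFIT3 at 0.943, MX1 and MX2 at 0.932 and RSAD2 and CMPK2 at 0.929. PARP14 and DTX3L, with 1 gene between them, correlated at 0.939. In the IFIT cluster IFIT1 stood apart again, with 0.673 for its neighbour IFIT3 and 0.563 for its neighbour IFIT5. The probe sets used for GBP1, IFIT1, IFIT2 and IFIT5 are marked as able to match more than one transcript. Signal shared between relatives was not tested.

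The other genes of the pathway were counted from lists made for these data. Of 8 interferon genes 3 had a probe set (IFNG, IFNK and IFNE) and none passed the filter, with mean levels of the list from 2.67 to 3.42 in L, 2.80 to 3.46 in M and 2.74 to 3.43 in H animals, so the ligands are not described further. Of 18 receptor and signalling genes 13 were tested and 11 lay above 0 between H and L, with a median of 0.22. Of all genes 45.1% lay above 0. The kinase JAK2 had 0.58 (SE 0.18) and SOCS3, an inhibitor of cytokine receptors, had 0.93 (SE 0.28). No other gene of this list was at an unadjusted p under 0.01. This made 2 of 13 genes, against 2.18% of all genes in either direction and 1.40% higher in H. The receptor chains IFNAR1 and IFNAR2 had 0.25 (SE 0.15) and 0.32 (SE 0.13). TYK2 and IFNLR1 had no probe set under these symbols.

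Of 49 other interferon-induced genes 30 were tested, and 28 of these lay above 0 between H and L with a median of 0.47. At an unadjusted p under 0.01 were 8, all higher in H. Over all genes 45.1% lay above 0, and 2.18% were under 0.01 in either direction and 1.40% higher in H. The list was chosen with earlier results of these data known. OAS1, which senses double-stranded RNA, lay between 7.12 and 10.28 in L (median 8.61), between 8.60 and 10.13 in M (median 9.58) and between 9.60 and 10.89 in H animals (median 10.24), with a difference of 1.59 (SE 0.37). CD274, the ligand of PD-1, had 1.51 (SE 0.44), DDX58 1.23 (SE 0.39), TDRD7, a protein of RNA granules, 0.90 (SE 0.25), and IFIH1 (MDA5), a second RNA sensor, 0.88 (SE 0.29). DHX58 had 0.85 (SE 0.29), the kinase EIF2AK2 (PKR) 0.79 (SE 0.24) and the RNA editing enzyme ADAR 0.56 (SE 0.18). CXCL10 lay between 5.04 and 10.47 in L (median 5.86), between 4.68 and 7.94 in M (median 6.71) and between 4.86 and 10.86 in H animals (median 6.36), so its animals spanned several doublings with a difference of 0.60 (SE 0.92). Like the members, this list differed by sex, with a median H minus L of 0.93 with 30 of 30 genes above 0 in males and a median of -0.03 with 14 above 0 in females. Its mean correlated with that of the members at 0.976 over the 20 animals once diet and sex means were removed. IFIT3, OAS1, JAK2, IFNGR1, DDX58, CD274 and SOCS3 also stand in the study's tables, which were drawn from these animals, so their direction is not independent evidence.

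Markers of cell types were compared between H and L in the same animals, and no marker reached the call. Past an unadjusted p of 0.01 lay 1 of 8 monocyte, 2 of 10 neutrophil, 1 of 9 T cell and 0 of 8 B cell markers, against 2.18% of all genes. All 8 tested monocyte markers lay above 0 (median 0.70), as did 9 of 10 neutrophil markers (median 0.56), while 9 of 9 T cell markers (median -0.36) and 8 of 8 B cell markers (median -0.40) lay below. In bulk samples fewer cells of a type and less RNA per cell cannot be told apart. The mean level of the monocyte markers ran from 8.59 to 9.89 in H and from 7.79 to 9.02 in L animals, and that of the neutrophil markers from 7.37 to 8.83 in H and from 6.95 to 8.38 in L animals. T cell markers ran from 7.95 to 9.12 in H and from 8.82 to 9.36 in L animals. B cell markers ran from 7.42 to 8.60 in H and from 7.93 to 9.05 in L animals, so lymphocyte genes were detected. Erythroid markers ran from 9.42 to 11.6 in H and from 10.5 to 11.9 in L animals. As levels are not read between genes, these values do not give the share of each cell type. Markers of plasmacytoid dendritic cells, which make much of the type I interferon in blood, lay above 0 in 7 of 7 (median 0.19), with levels from 6.37 to 6.48 in H and 6.06 to 6.51 in L animals. NK cell markers had a median of -0.09, platelet markers of 0.18 and erythroid markers of -0.44.

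With the neutrophil and monocyte scores as covariates, 0 members were at an unadjusted p under 0.01 between H and L and 3 under 0.05, and between H and M there were 0 at either. As these scores carry part of the diet difference, the lower counts cannot tell diet from cell composition. The interaction of diet and sex had 10 members under 0.01 and 24 under 0.05 with these covariates. The share of all genes was not taken for the interaction with these covariates. Its counts are therefore a description only, and whether the sex pattern is separate from cell composition was not tested. The neutrophil and monocyte markers had medians above 0 in both sexes, neutrophil 0.60 in males and 0.52 in females, monocyte 0.85 and 0.63. The members had a median of 1.42 in males and -0.13 in females. Those at an unadjusted p under 0.01 between H and L nevertheless lay above 0 in both sexes, from 0.08 in ZBP1 to 0.95 in IFIT2 in females. Once diet and sex means were removed, the mean of the neutrophil markers correlated with that of the members at 0.004 over the 20 animals and that of the monocyte markers at 0.227. The mean of the members joins the IFIT2 and GBP2 ends, and the markers were not set against each end. NK cell and plasmacytoid dendritic cell markers had a median H minus L of 0.30 and 0.33 in males and -0.81 and -0.22 in females. This was the same order as the medians of the members, and they correlated with the mean of the members at 0.398 and 0.410. The part of these cell types in the diet and sex differences was not tested beyond these values.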

How the data were processed

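The authors read the arrays with GCOS 1.1.1 and normalized the intensities by RMA, and the deposited values of 47845 probe sets on 20 arrays are on a log2 scale. Quantile normalization removes most of any change common to all transcripts. Array medians lay between 4.29 and 4.46, and precision is set by how few arrays there are. According to the methods an array that failed quality control had been left out.

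Here 123 control probe sets were left out, and a probe set was kept where 80% or more of the arrays had it above their own median (22127 probe sets), in place of the authors' presence calls. Genes were named by the platform annotation, in which 26426 probe sets carried 1 name, and 436 of these outside the lists were updated by synonym. Diets were compared in limma 3.58.1 (R 4.3.3) over all 3 groups with sex as covariate, and q was Storey's. Litter, which the methods use, is not in the labels. The exact permutation test took 13 animals without covariate. Full values were given for members at an unadjusted p under 0.01 in any comparison and for at least the first 2 of each role group. The members and lists were chosen with earlier results of these data known. Steps were tested on simulated data. Figures were drawn with matplotlib 3.10.9.

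Alternatives were no filter and a stricter one, no sex term, no moderation, trend and robust variances, array weights, centring, cyclic loess, Benjamini-Hochberg, marker scores as covariates, L and H arrays alone, other choices of probe set, and each animal left out.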

Additional observations from a re-analysis of the deposited data

Results flagged for a closer look

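In 12 of 102 groups of values, each a gene within a diet, 1 animal stood far from the others by the gap to its nearest neighbour relative to the range of the group. Chance alone flags about 1 in 20 such groups, and the members vary together, so these are not 12 separate events. L 10 was the high animal in 5 genes of the L group, at 9.50 in GBP2, 8.78 in BST2, 7.71 in LGALS3BP, 9.43 in XAF1 and 8.56 in LAP3. M 19 was the low animal in 3 genes of the M group, at 7.78 in RSAD2, 4.90 in BST2 and 5.70 in ZBP1. H 18 was the low animal of the H group at 7.76 in IRF9 and 8.94 in PARP12. H 7 was the high animal of the H group at 8.15 in USP18, and H 11 at 9.91 in SP110. The array weights of L 10 (0.987) and H 7 (1.49) were not low, and that of M 19 was 0.390.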

How the results depend on the processing

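Of the values of single named genes, 221 kept direction and side of the threshold under the alternatives other than leaving out animals, 23 fell short of it, 7 passed it anew and 1 changed sign (GBP1, -0.00368 with L and H arrays alone). Between H and L 14 members were called with array weights, against 4.68% of all genes, and 5 over the 3 diets. Beyond H against L the share of all genes was not taken under these alternatives, so those counts are a description only. With marker scores 0 were left at an unadjusted p under 0.01 and 3 under 0.05 between H and L, 0 and 0 between H and M, and 0 and 1 over the 3 diets. Between H and M the count under 0.01 was 5 without sex, 0 without moderation, 1 after centring and 1 with the mean of probe sets, and that under 0.05 was 11 without moderation. Over the 3 diets there were 2 and 10 without moderation, and 13 under 0.01 with array weights. For the interaction there were 3 without moderation, 18 with array weights and 6 after cyclic loess under 0.01, without a share of all genes beside them. The cause was not tested.

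Leaving out 1 animal gave 0 to 10 called members between H and L (10 without L 13, 9 without L 10, 7 without H 18, otherwise 0), 5 to 18 under 0.01 (5 without L 9, 18 without L 10) and 12 to 24 under 0.05. It gave 0 to 3 under 0.05 between M and L, and 0 to 15 and 10 to 22 between H and M (15 without H 18). Over the 3 diets it gave 3 to 17 and 8 to 21, and for the interaction 0 to 10 called, 2 to 27 and 16 to 30. In these fits the share of all genes was taken only for the members called between H and L without L 10, L 13 or H 18. The exact permutation test gave 5 to 19 members under 0.05, the median correlation was 0.628 to 0.721, and GBP1 ran from -0.17 to 0.26. No paired analysis was possible because each replicate number occurs once in the series.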
